A study of Mus musculus with 6 samples.

Results

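The matrix metalloproteinases (MMPs) described here were the genes Mmp2, Mmp3, Mmp9, Mmp10, Mmp11, Mmp13, Mmp14, Mmp15, Mmp19 and Mmp23, matched by gene symbol in the RNA sequencing tables of sorted Lewis lung carcinoma (LLC) cells. Of these 10 symbols, 9 were found among the 18182 genes of the tables, and Mmp23 was not listed in any library. The 10 genes were chosen by values of the same contrast, so that their levels and fold changes are a description and no p-value is given for them. The files hold 12 further MMP genes, which are used for comparison. LLC is a mouse lung cancer line, here carrying red fluorescent protein (LLC-RFP) so that the tumour cells could be gated away from the cells of the host. Wild-type C57BL/6 mice were injected under the skin either with LLC-RFP alone (LLC alone, n = 3 libraries) or with LLC-RFP together with bone marrow-derived mesenchymal stem cells (LLC with BMSCs, n = 3 libraries), and fluorescent cells were sorted from the primary tumour. The age of these mice and the time of tumour collection were not given in the labels. The study's methods state an age for the female mice of its allograft experiments, and a tumour size rather than a day for this collection. Nothing in the labels says whether each library came from its own mouse.

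MMPs are zinc-dependent endopeptidases that cut collagens, laminins, proteoglycans and other proteins outside the cell. Most are secreted as inactive proenzymes and are switched on by furin-type convertases, plasmin or other MMPs, and tissue inhibitors of metalloproteinases (TIMPs) block the active site. In tumours they are made by cancer cells and by stromal and myeloid cells, and several of their genes are known to be induced by interleukin-1, tumour necrosis factor and growth factors through AP-1 and NF-kappaB.

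The sequence just before the start of a gene is shown for members that moved in either direction and for Mmp1b, a neighbour of Mmp3. Each run is 120 bases up to the RefSeq start of the gene on GRCm38.p6, written 5′ to 3′ on the strand of the gene, and the capitals mark the AP-1 motif TGANTCA and the TATA box TATAAA. The positions are chr9:7272394-7272513 for Mmp13, chr9:7445702-7445821 for Mmp3, chr9:7502222-7502341 for Mmp10 and chr14:54431478-54431597 for Mmp14 on the plus strand, and chr9:7388027-7388146 for Mmp1b and chr10:75932503-75932622 for Mmp11 on the minus strand.
Mmp13: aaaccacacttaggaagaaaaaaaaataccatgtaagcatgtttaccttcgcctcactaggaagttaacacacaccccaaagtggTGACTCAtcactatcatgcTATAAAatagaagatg
Mmp3: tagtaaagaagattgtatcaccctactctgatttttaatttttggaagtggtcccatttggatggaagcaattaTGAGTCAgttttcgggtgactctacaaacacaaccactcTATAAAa
Mmp10: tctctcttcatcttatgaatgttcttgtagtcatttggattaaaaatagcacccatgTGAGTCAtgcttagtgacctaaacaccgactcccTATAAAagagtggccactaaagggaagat
Mmp1b: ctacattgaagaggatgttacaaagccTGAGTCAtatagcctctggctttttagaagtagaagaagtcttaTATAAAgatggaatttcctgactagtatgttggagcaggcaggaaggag
Mmp14: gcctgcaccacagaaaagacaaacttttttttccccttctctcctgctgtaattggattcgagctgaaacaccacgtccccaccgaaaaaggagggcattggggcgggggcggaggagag
Mmp11: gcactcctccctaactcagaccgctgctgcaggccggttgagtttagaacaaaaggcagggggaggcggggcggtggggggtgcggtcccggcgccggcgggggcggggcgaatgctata

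In Mmp13 the AP-1 motif began 35 bases and the TATA box 16 bases before the annotated start. The same motifs began 46 and 7 bases before the start in Mmp3, 63 and 29 bases before it in Mmp10, and 93 and 49 bases before it in Mmp1b. Over the 250 bases before the start, searched on both strands, 3 of the 7 members with a RefSeq promoter window held an AP-1 motif (Mmp3, Mmp10 and Mmp13), against 6.75% of all 32851 windows. Those 3 members were also the ones with a TATA box, which 12.4% of all windows held, and 1.21% of all windows held both. The windows of Mmp11, Mmp14, Mmp15 and Mmp23 held neither. Of the 11 other MMP genes with a window, 5 held an AP-1 motif (Mmp1a, Mmp1b, Mmp7, Mmp12 and Mmp20). All of these but Mmp12 also held a TATA box. Of the MMP genes with a window, 6 of the 8 called higher and 0 of the 3 called lower held an AP-1 motif. A TATA box was held by 5 of the 8 called higher and 0 of the 3 called lower. Mmp8 and Mmp14, called higher, held neither motif. Mmp20, with at most 2 counts in any library, and Mmp7, not listed, held both and have no call. Members are among these genes, and whether the motifs go with the calls was not tested. The ETS motif AGGAAG was present in Mmp3, Mmp13 and Mmp14 and in 29.5% of all windows, and the STAT motif TTCNNNGAA was present among the members in Mmp23 alone and in 7.02% of all windows. No hit of these motifs overlapped another in the windows of the genes shown. The windows of Mmp3, Mmp10 and Mmp13 were 37.2% to 40.4% G and C, those of Mmp11 and Mmp15 63.2% and 63.6%, and the median of all windows 52.4%. Mmp3, Mmp10 and Mmp13 are related genes of a single cluster, so that their windows are not independent of each other, and such matches are a description of letters. No window was found in the table for Mmp2, Mmp9 and Mmp19.

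The tables hold estimated counts, in which a read that matches several genes is divided among them, and FPKM (fragments scaled to transcript length and library total), which is the scale used here for levels between genes. Libraries held 33476347 to 46189113 counts. LLC alone replicate 3 stood apart from replicates 1 and 2: the median chi-square of its counts against theirs over genes was 14.3 and 13.8 times that of sampling alone, against 1.96 times between replicates 1 and 2 and 1.70 to 5.11 times among the libraries of LLC with BMSCs. Fold changes are log2 values of LLC with BMSCs against LLC alone with their standard errors (SE), from edgeR fitted to all 13353 genes that passed its filter on low counts. At an adjusted p under 0.05, 62.9% of these genes were called, 31.5% as higher and 31.3% as lower in LLC with BMSCs, with a median log2 fold change of 0.01, and for 70.6% of them the FPKM of the groups did not overlap. A call or a gap between the groups is therefore common in these data. A gene with almost no counts in 1 group passes the filter only through the other and can be called only as higher there. The counts of called genes below include such genes. Of the carcinoma markers, Krt8 was at 95.3 ± 5.98 FPKM (SD, n = 3) in LLC alone and 110 ± 2.85 in LLC with BMSCs, whereas Krt7, Krt18, Krt19, Epcam and Cdh1 were each under 1 FPKM on average in either group. The 2 tested, Krt8 and Krt18, were both called higher, beside 31.5% of all tested genes. The call of Krt8 depended on the libraries used, as given below. Krt18 rose from 0.08 to 0.65 FPKM (log2 fold change 2.91 ± 0.34, edgeR, adjusted p = 0.000221), from 2, 4 and 8 counts in LLC alone.

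Of the 9 members found, 8 passed the filter. Mmp2, Mmp3, Mmp9, Mmp10, Mmp13 and Mmp14 were called higher in LLC with BMSCs, Mmp11 was called lower, Mmp19 was not called, and Mmp15 had too few counts to be tested. Since these values chose the genes, the count is not read against the 62.9% of all genes called. Without LLC alone replicate 3 the same 7 members were called, with log2 fold changes from -1.32 for Mmp11 to 5.36 for Mmp9. In bulk samples such as these, fewer cells of a type and less RNA per cell cannot be told apart.

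**Figure D1:**
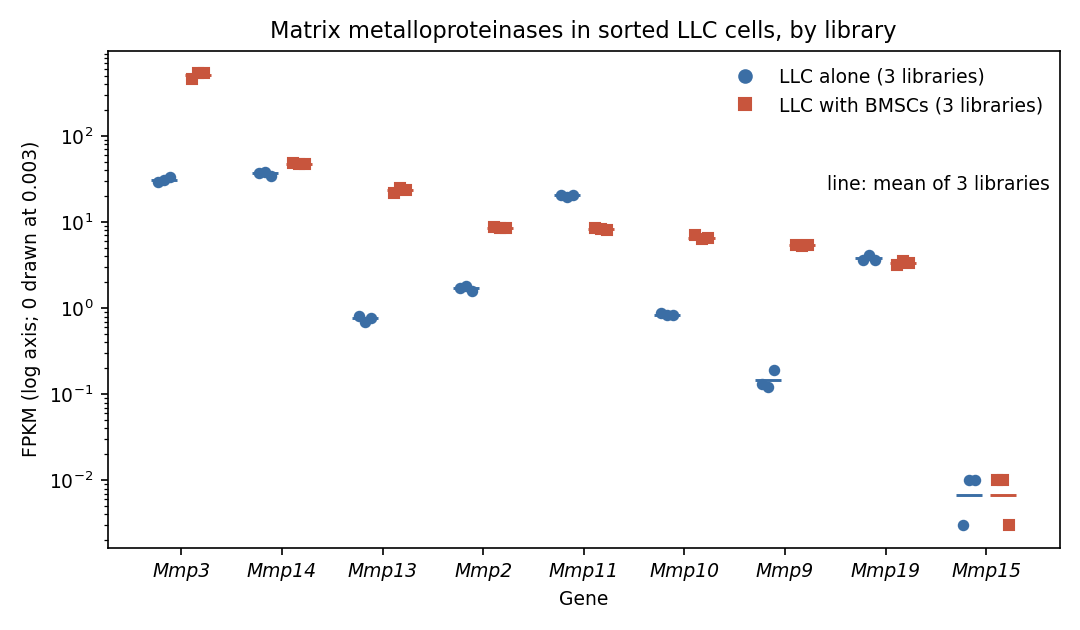
FPKM of each of the 9 members found (log axis), 1 point per library, with blue circles for LLC alone, red squares for LLC with BMSCs and a line at each mean of 3 libraries. Mmp3 lies at 29.26 to 33.34 in LLC alone and 458.06 to 536.30 in LLC with BMSCs, Mmp11 is lower in LLC with BMSCs, and Mmp15 is at 0.01 or less in every library.

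Mmp3 (stromelysin-1) cleaves proteoglycans, laminin and basement membrane components and activates other pro-MMPs. Its FPKM was 29.26, 30.64 and 33.34 in the 3 libraries of LLC alone and 458.06, 536.12 and 536.30 in those of LLC with BMSCs. Every library of LLC with BMSCs lay far above every library of LLC alone, and replicate 1 was the lowest of its group. The estimated counts behind these levels were 1775 to 2664 and 35347 to 40883, and the fitted log2 fold change was 4.02 ± 0.09, or 16.2-fold. Ordered by FPKM among all genes, Mmp3 moved from between place 2653 and 2971 in the libraries of LLC alone to between place 132 and 143 in those of LLC with BMSCs.

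Mmp10 (stromelysin-2), a close relative of Mmp3 with a similar range of substrates, was at 0.87, 0.83 and 0.83 FPKM in LLC alone, against 7.01, 6.36 and 6.49 FPKM in LLC with BMSCs. The groups were well separated, with a log2 fold change of 2.95 ± 0.10. Mmp10 and Mmp3 divided reads: their estimated counts were not whole in the 3 libraries of LLC with BMSCs, and the sum of both was whole in all 6 libraries to within 0.011 counts. The count of Mmp10 was 2.40% to 2.86% of that of Mmp3 in LLC alone and 1.14% to 1.47% in LLC with BMSCs, and how far reads of Mmp3 raised the count of Mmp10 was not tested. The level of Mmp10 is therefore uncertain. For Mmp3 and Mmp10 summed as 1 gene, the log2 ratio of the mean normalized counts was 4.0.

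Mmp11 (stromelysin-3), which unlike most secreted MMPs is activated inside the cell by furin and is a weak protease of matrix proteins, went the other way. FPKM values of 20.70, 19.63 and 20.92 were measured in LLC alone and of 8.47, 8.27 and 8.10 in LLC with BMSCs. The groups did not overlap, and the log2 fold change was -1.35 ± 0.06, a 2.54-fold lower level in LLC with BMSCs. It was the third most abundant MMP in LLC alone and the fifth in LLC with BMSCs.

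Mmp13 (collagenase-3) cleaves fibrillar collagens and is the principal interstitial collagenase of rodents. It was measured at 0.82, 0.70 and 0.77 FPKM in LLC alone, from 61 to 99 counts, and at 21.77, 24.85 and 23.72 FPKM in LLC with BMSCs, from 2529 to 2854 counts. All libraries of LLC with BMSCs were above all those of LLC alone, and the log2 fold change was 4.91 ± 0.09, or 30.0-fold. Its place in the order of the MMP genes rose from the ninth to the third.

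The other collagenase genes are not members, and each is given with its test. Mmp1a and Mmp1b are rodent relatives of human interstitial collagenase, and Mmp8 is the collagenase of neutrophils. Mmp1b rose from 0.18, 0.15 and 0.18 FPKM to 4.95, 5.66 and 5.71 FPKM, with a log2 fold change of 4.62 ± 0.10 (edgeR, adjusted p = 1.02e-07). Mmp1a rose from 0.12, 0.11 and 0.18 FPKM to 0.50, 0.71 and 0.56 FPKM, with a log2 fold change of 2.07 ± 0.25 (edgeR, adjusted p = 0.000258). The level of Mmp1b was 1 to 1.5 times that of Mmp1a in LLC alone and 7.97 to 10.2 times in LLC with BMSCs. Most of the count of Mmp1b, 88.4% to 89.7% in LLC with BMSCs, was assigned to a transcript that the authors' pipeline had assembled rather than to NM_032007, so that its FPKM rests on the length of that transcript. The counts of Mmp1a and Mmp1b were not whole in some libraries, and their levels are uncertain to that extent. Mmp8 had 0 counts in every library of LLC alone and 93, 109 and 108 counts in LLC with BMSCs, at least 31.5-fold higher against a floor of 3 counts per library (edgeR, adjusted p = 1.79e-05). At 0.98 ± 0.09 FPKM (SD, n = 3) it was nevertheless far below Mmp13 in the same libraries.

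Mmp2 and Mmp9 are the gelatinases, which digest denatured collagen and type IV collagen of the basement membrane. Mmp2 was at 1.70, 1.83 and 1.6 FPKM in LLC alone, against 8.84, 8.51 and 8.52 FPKM in LLC with BMSCs. The spread within each group was small beside the gap, and the log2 fold change was 2.32 ± 0.07. Mmp9 was close to absent in LLC alone, at 0.13, 0.12 and 0.19 FPKM from 13 to 28 counts, and was at 5.44, 5.24 and 5.49 FPKM in LLC with BMSCs, from 721 to 756 counts. Its log2 fold change of 5.12 ± 0.14 was the largest fitted value among the members, with a coefficient of variation of 25.8% over the libraries of LLC alone and of 2.45% over those of LLC with BMSCs. Mmp2 was 8.42 to 15.25 times as abundant as Mmp9 in LLC alone and 1.55 to 1.625 times in LLC with BMSCs.

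Mmp14 and Mmp15 encode membrane-type MMPs, which sit on the cell surface. Mmp14 (MT1-MMP) cleaves collagen around the cell and activates pro-Mmp2 in a complex that holds Timp2. It was the most abundant MMP of LLC alone, at 37.71, 38.48 and 34.17 FPKM, and was at 48.09, 46.89 and 46.94 FPKM in LLC with BMSCs. The groups did not overlap, but the difference was small, with a log2 fold change of 0.34 ± 0.06, or 1.27-fold. Its counts were not whole in any library, and no single gene completed them to whole numbers, so that the genes it divides reads with were not found. Mmp15 (MT2-MMP) had 0, 2 and 2 counts in LLC alone and 1, 1 and 0 counts in LLC with BMSCs. Both groups were at or under 3 counts in every library, and no fold is given. Mmp14 was 21.0 to 22.2 times as abundant as Mmp2 in LLC alone and 5.44 to 5.51 times in LLC with BMSCs.

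Mmp19, a secreted MMP that acts on basement membrane proteins, was the tested member that moved least. Its FPKM was 3.61, 4.16 and 3.67 in LLC alone and 3.16, 3.56 and 3.34 in LLC with BMSCs. The highest library of LLC with BMSCs lay just under the lowest of LLC alone, and the log2 fold change of -0.20 ± 0.09 was not called. The call depended on the scaling: with upper-quartile scaling or with the trend over transcript length removed, Mmp19 was called lower, with a log2 fold change of -0.23 or -0.24. Mmp19 divided reads with Tmem198b, whose count completed that of Mmp19 to a whole number in every library, and the log2 ratio of both summed was 0.01. Its level is uncertain for that reason.

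Among the 12 other MMP genes found, 6 passed the filter and were tested. All 6 were called, 4 as higher (Mmp1a, Mmp1b, Mmp8 and Mmp12) and 2 as lower (Mmp24 and Mmp28), beside 62.9% of all tested genes. Mmp8 and Mmp12, with at most 1 count in each library of LLC alone, passed the filter only through LLC with BMSCs. They could be called only as higher, so nothing is read from this count. Mmp12, the elastase of macrophages, had 1, 0 and 0 counts in LLC alone and 329, 316 and 342 counts in LLC with BMSCs. The ratio of the summed counts was 924 with a 95% counting interval of 165 to 36532 (exact binomial), and its level in LLC with BMSCs was 2.10 ± 0.09 FPKM (SD, n = 3). Mmp28 (epilysin) fell from 2.31, 2.24 and 1.68 FPKM to 1.05, 0.79 and 1.02 FPKM, with a log2 fold change of -1.14 ± 0.16 (edgeR, adjusted p = 0.00056), and divided reads with 1700020L24Rik, which itself had a log2 fold change of -1.19 ± 0.21. Mmp24 (MT5-MMP) fell from 2.21, 2.27 and 2.49 FPKM to 1.79, 2.04 and 1.92 FPKM, with a log2 fold change of -0.30 ± 0.09 (edgeR, adjusted p = 0.0189), and this call was lost without LLC with BMSCs replicate 1 or 3, with an adjusted p of 0.0591 and 0.0609. Mmp16, Mmp17, Mmp20, Mmp21, Mmp25 and Mmp27 were at 0.04 FPKM or less in every library and were not tested. Mmp16 had 0 counts in LLC alone and 3, 5 and 6 counts in LLC with BMSCs, at least 1.43-fold higher against the floor. Mmp7 was not listed in the tables.

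**Figure D2:**
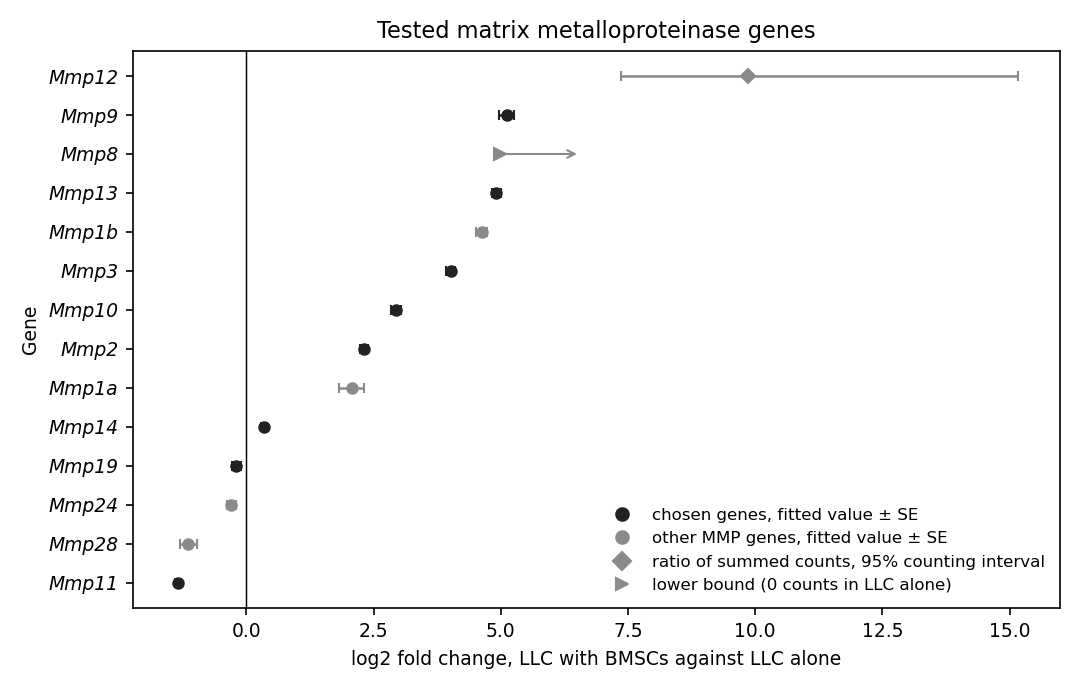
Log2 fold change of the 14 MMP genes that passed the filter, LLC with BMSCs against LLC alone (3 libraries each), in order of size, with black for the chosen genes and grey for the other MMP genes. Circles are fitted values with bars of 1 SE, the diamond is the ratio of summed counts of Mmp12 with its 95% counting interval, and the triangle is the lower bound for Mmp8. The values run from -1.35 for Mmp11 to 5.12 for Mmp9, with Mmp12 beyond.

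In the RefSeq order of genes on GRCm38.p6, 10 MMP genes lie next to each other on chromosome 9, in the order Mmp13, Mmp12, Mmp1b, Mmp3, Mmp1a, Mmp10, Mmp8, Mmp27, Mmp20 and Mmp7. Of these, 7 were tested, and all 7 were called higher, beside 31.5% of all tested genes, Mmp1a with the smallest log2 fold change, 2.07. Mmp3, Mmp10 and Mmp13 are among the 7, and Mmp8 and Mmp12 passed the filter only through LLC with BMSCs, so nothing is read from this count. The 7 tested MMP genes elsewhere in the genome, among them Mmp2, Mmp9, Mmp11, Mmp14 and Mmp19, ranged from -1.35 to 5.12, with 3 called higher and 3 lower. Of the 6 protein-coding genes on either side of the cluster, which were chosen after values were seen, 10 were tested, with 7 called higher, 1 lower (beside 31.5% and 31.3% of all tested genes) and a median log2 fold change of 0.48. The nearest neighbours, Dcun1d5 beside Mmp13 and Tmem123 beside Mmp7, had log2 fold changes of 0.41 ± 0.11 (edgeR, adjusted p = 0.0132) and 0.46 ± 0.06 (edgeR, adjusted p = 0.000306). The call of Dcun1d5 was lost without LLC with BMSCs replicate 2 (adjusted p = 0.0507). Birc3, an inhibitor of apoptosis and known NF-kappaB target that lies 3 genes beyond Mmp7, rose from 0.31 to 5.74 FPKM, with a log2 fold change of 4.39 ± 0.11 (edgeR, adjusted p = 1.21e-07), with counts that were not whole in LLC with BMSCs, whereas Yap1 beyond it was not called (-0.11 ± 0.06), but was called lower without LLC alone replicate 3 (-0.14, edgeR, adjusted p = 0.0192). Casp4 on the other side fell, with a log2 fold change of -0.59 ± 0.09 (edgeR, adjusted p = 0.000828). Whether the MMP genes of the cluster differ from the other MMP genes was not tested, because 3 of them are members.

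**Figure D3:**
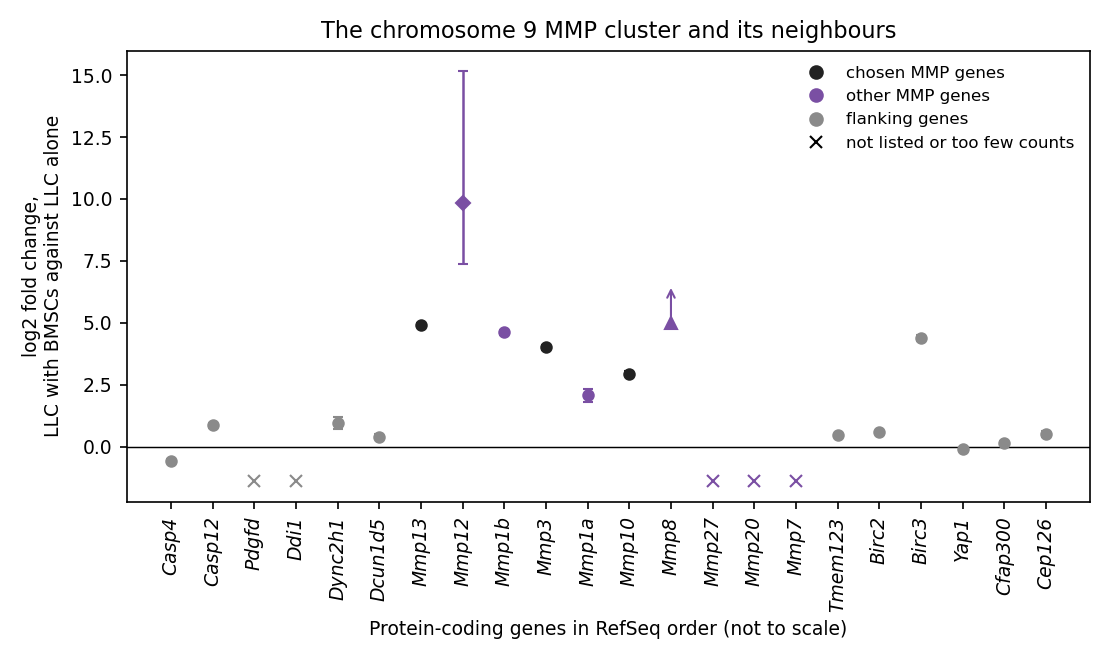
Log2 fold change of LLC with BMSCs against LLC alone for the protein-coding genes of the MMP cluster on chromosome 9 and 6 genes on either side, in RefSeq order and not to scale, with circles for fitted values ± SE, a diamond for the ratio of summed counts of Mmp12 with its 95% counting interval, a triangle for the lower bound of Mmp8 and crosses for genes without a value. The 7 tested MMP genes are at 2.07 or above, and of the flanking genes Birc3 is at 4.39 and the others are between -0.59 and 0.94.

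Mmp11 and Mmp19 were the members with more than 1 transcript in the tables. NM_008606, the main transcript of Mmp11, was at 19.44, 18.73 and 19.84 FPKM in LLC alone, against 7.64, 7.23 and 6.84 FPKM in LLC with BMSCs. The minor transcript NM_001306184 was at 1.26, 0.90 and 1.08 FPKM in LLC alone, against 0.83, 1.04 and 1.26 FPKM in LLC with BMSCs, so that the groups overlapped. Its share of the estimated count of the gene was 4.88%, 3.64% and 4.11% in LLC alone and 7.93%, 10.2% and 12.7% in LLC with BMSCs. The shares did not overlap, and the lower level of Mmp11 was that of the main transcript. These shares are themselves estimates that divide reads between transcripts, and the contrast chose the gene, so no test is given. For Mmp19, NM_001164197 took 52.4% to 62.9% of the count in LLC alone and 45.2% to 60.5% in LLC with BMSCs, and the groups overlapped.

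**Figure D4:**
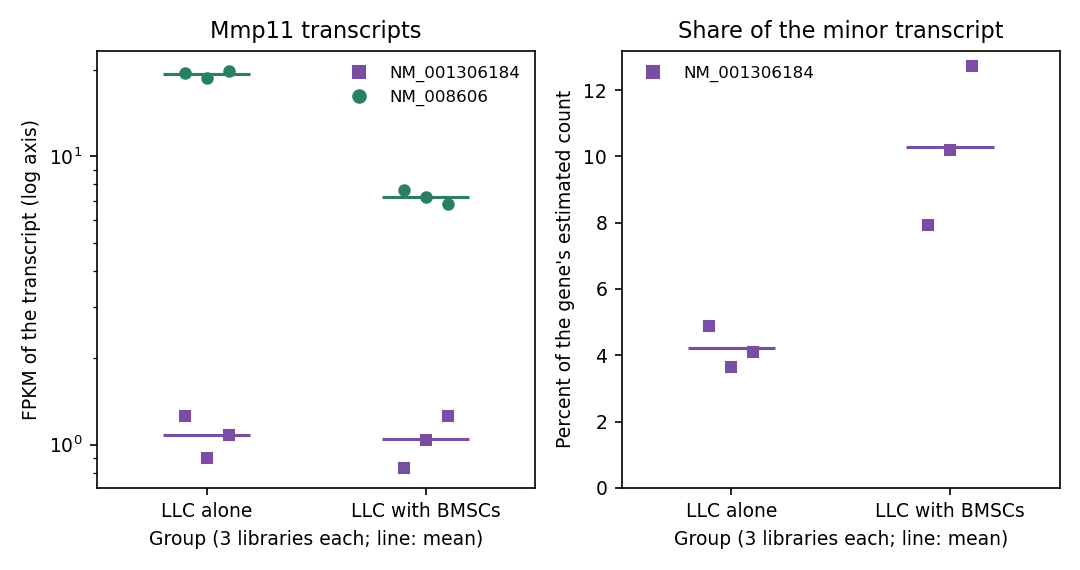
Left, FPKM (log axis) of the 2 transcripts of Mmp11 in the libraries of LLC alone and LLC with BMSCs (3 each, line at the mean); right, percent of the estimated count of the gene that was assigned to NM_001306184. The main transcript NM_008606 falls from a mean of 19.3 to 7.24 FPKM, the minor one is at a mean of 1.08 and 1.04 FPKM, and its share is 3.64% to 4.88% against 7.93% to 12.7%.

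Summed over the MMP genes, the level was 99.69, 101.2 and 100.1 FPKM in LLC alone, against 572.2, 652.2 and 651.5 FPKM in LLC with BMSCs. Mmp3 made up 29.4% to 33.3% of this sum in LLC alone, beside 34.1% to 38.0% for Mmp14 and 19.4% to 20.9% for Mmp11. In LLC with BMSCs Mmp3 made up 80.1% to 82.3%, Mmp14 7.19% to 8.41% and Mmp11 1.24% to 1.48%. Without Mmp3 the sum was 66.7 to 70.6 FPKM in LLC alone, against 114 to 116 FPKM in LLC with BMSCs. In the order of levels in LLC alone, Mmp14, Mmp3, Mmp11 and Mmp19 stood apart from each other, Mmp24, Mmp28 and Mmp2 followed with neighbours that overlapped except that Mmp2 lay above Mmp10, and Mmp1b, Mmp9 and Mmp1a overlapped. In LLC with BMSCs the order was Mmp3, Mmp14, Mmp13, Mmp2, Mmp11 and Mmp10, each apart from the next in all 3 libraries, although Mmp2 and Mmp11 differed by little (8.62 and 8.28 FPKM), and Mmp1b and Mmp9 overlapped.

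**Figure D5:**
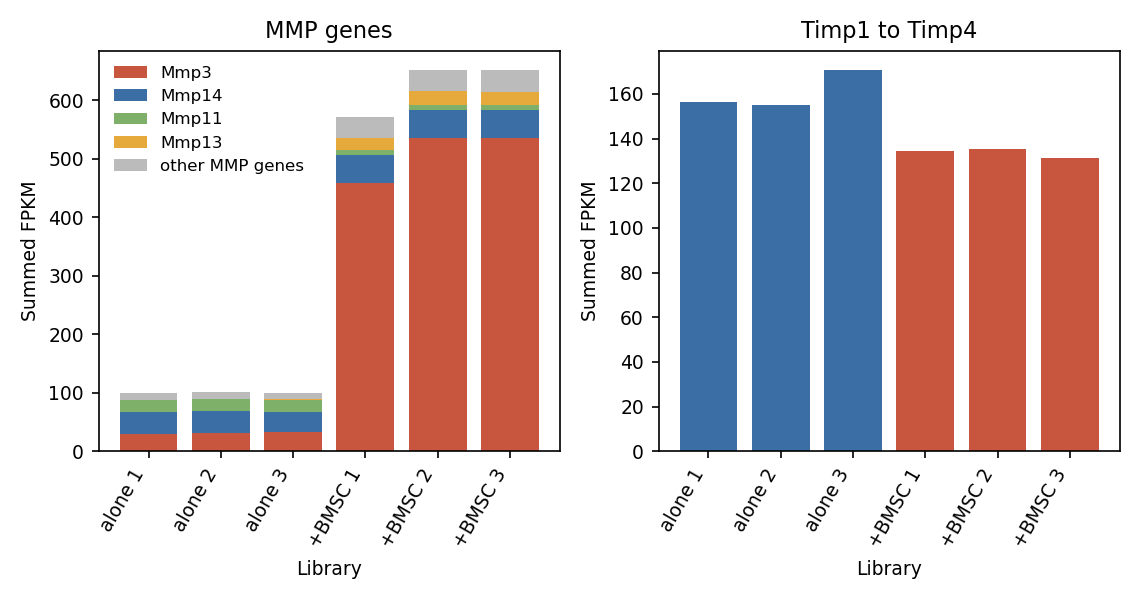
Summed FPKM in each library (linear axes from 0), left for all MMP genes with the parts of Mmp3, Mmp14, Mmp11, Mmp13 and the others, right for Timp1 to Timp4 with blue for LLC alone and red for LLC with BMSCs. The MMP sum is 99.69 to 101.2 FPKM in LLC alone, against 572 to 652 FPKM in LLC with BMSCs, where Mmp3 makes up most of it, and the TIMP sum is 155 to 171 against 131 to 136 FPKM.

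The inhibitors are not members. Timp2, which both inhibits MMPs and takes part in the activation of pro-Mmp2 by Mmp14, fell from 86.96, 84.78 and 85.30 FPKM to 49.57, 45.90 and 46.38 FPKM, with a log2 fold change of -0.88 ± 0.06 (edgeR, adjusted p = 1.21e-05). The level of Mmp14 was 0.401 to 0.454 times that of Timp2 in LLC alone and 0.970 to 1.02 times in LLC with BMSCs. Timp1 was at 69.42, 70.22 and 85.45 FPKM in LLC alone, against 84.36, 89.31 and 84.54 FPKM in LLC with BMSCs. The groups overlapped through LLC alone replicate 3, and Timp1 was not called (log2 fold change 0.18 ± 0.09, edgeR, adjusted p = 0.118), but it was called higher without that library (0.29, adjusted p = 0.000633) and with the trend over transcript length removed (0.51). Timp3 rose from 0.01 to 0.36 FPKM, with a log2 fold change of 5.28 ± 0.44 (edgeR, adjusted p = 3.74e-05). That value rested on 0, 1 and 4 counts in LLC alone, against 81, 71 and 70 in LLC with BMSCs. Its size is uncertain, at 0.43 to 6.74 in the alternative fits. Timp3 stayed a small part of the TIMP sum, which was 155 to 171 FPKM in LLC alone, against 131 to 136 FPKM in LLC with BMSCs. The sum of the MMP genes was 0.586 to 0.653 times the TIMP sum in LLC alone and 4.26 to 4.96 times in LLC with BMSCs, or 0.391 to 0.455 and 0.849 to 0.877 times without Mmp3. These are ratios of transcript levels, and protein and enzyme activity were not measured.

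Serpins that block the plasminogen activators rose. Serpinb2 (PAI-2) was at 0.02 FPKM in LLC alone, against 6.34 FPKM in LLC with BMSCs, a ratio of summed counts of 302 with a counting interval of 129 to 933, and Serpine2 (protease nexin-1) was at 0.003 and 2.43 FPKM, a ratio of 601 with an interval of 107 to 23775. Reck, a membrane anchored inhibitor, was called higher at a mean level of 0.04 against 0.11 FPKM, but its adjusted p was 0.0582 to 0.134 without LLC alone replicate 2 or 3 or without any 1 library of LLC with BMSCs. In all, 5 of the 7 tested inhibitors were called higher and Timp2 lower, against 31.5% and 31.3% of all tested genes. Timp3, Serpine2 and Serpinb2, with at most 4 counts in each library of LLC alone, passed the filter only through LLC with BMSCs.

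Of the genes that activate MMPs, Plau (urokinase), which makes plasmin from plasminogen, rose from 4.90, 4.78 and 4.63 FPKM to 27.30, 29.48 and 29.48 FPKM, with a log2 fold change of 2.57 ± 0.06 (edgeR, adjusted p = 1.02e-07). Its receptor Plaur was at 42.8 and 40.4 FPKM and was not called. Furin, the convertase that activates Mmp11 and Mmp14, rose from 20.29, 20.50 and 17.17 FPKM to 27.37, 26.63 and 25.96 FPKM (log2 fold change 0.44 ± 0.08, edgeR, adjusted p = 0.00172), and Pcsk6, another convertase, fell from 4.66 ± 0.32 to 3.21 ± 0.21 FPKM (SD, n = 3; -0.56 ± 0.08, edgeR, adjusted p = 0.000649). Plat was called higher at a log2 fold change of 0.14, and that call was lost without LLC alone replicate 1 or 2 or LLC with BMSCs replicate 2 or 3 (adjusted p = 0.0991 to 0.171). Of 8 tested activators 3 were called higher and 1 lower, with a median log2 fold change of 0.14, beside 31.5% and 31.3% of all tested genes.

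Of the 13 tested binding partners, 9 were called higher and 2 lower, beside 31.5% and 31.3% of all tested genes, with a median log2 fold change of 0.69. Lcn2, which binds Mmp9, rose from 14.9 ± 1.88 to 66.1 ± 3.09 FPKM (SD, n = 3; log2 fold change 2.13 ± 0.10, edgeR, adjusted p = 2.11e-06). Cd44, a hyaluronan receptor that binds Mmp9 and Mmp14, rose from 49.11, 48.98 and 48.55 FPKM to 76.53, 80.66 and 81.86 FPKM (0.68 ± 0.05, edgeR, adjusted p = 2.86e-05). Thrombospondin 1 (Thbs1) rose from 1.65 to 6.56 FPKM and thrombospondin 2 (Thbs2) fell from 30.2 to 16.0 FPKM, with log2 fold changes of 1.97 ± 0.14 and -0.94 ± 0.09 (edgeR, adjusted p = 1.83e-05 and 8.23e-05). The endocytic receptor Lrp1, which clears MMPs, rose from 13.7 ± 5.08 to 28.6 ± 2.98 FPKM (SD, n = 3; 1.04 ± 0.26, edgeR, adjusted p = 0.00911), and the integrin subunit Itgav from 13.0 to 32.4 FPKM (1.29 ± 0.12, edgeR, adjusted p = 6.24e-05). Cav1, the caveolin of the membrane pits that take up Mmp14, fell from 149 to 69.1 FPKM (-1.12 ± 0.06, edgeR, adjusted p = 3.18e-06). Bsg (basigin, also called EMMPRIN for its induction of MMPs) was at 467 and 444 FPKM and was not called.

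Among the matrix proteins that MMPs cleave, 14 of 23 tested genes were called higher and 2 lower, beside 31.5% and 31.3% of all tested genes, with a median log2 fold change of 0.99. Col1a1 and Lama1, with at most 4 counts in each library of LLC alone, passed the filter only through LLC with BMSCs. Col3a1 rose from 41.2 ± 3.82 to 100 ± 1.48 FPKM (SD, n = 3), Dcn (decorin) from 0.11 to 6.31 FPKM, Tnc (tenascin C) from 0.07 to 1.16 FPKM, Bgn (biglycan) from 1.53 to 4.44 FPKM, and Col1a1 and Col1a2 from 0.01 and 0.60 to 2.0 and 1.98 FPKM, each with an adjusted p of 9.73e-06 or less (edgeR). Spp1 (osteopontin) was the most abundant gene of the list and fell by 0.50 on the log2 scale (edgeR, adjusted p = 0.000799). Col4a1, Col4a2, Lamb1 and Lamc1, which make up much of the basement membrane, were at 58.4 to 96.0 FPKM on average in either group and were not called.

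Several cytokines that induce MMP genes were close to absent in LLC alone. Il1b was at 1, 1 and 0 counts in LLC alone and at 603, 643 and 611 counts in LLC with BMSCs, or 10.98 ± 0.42 FPKM (SD, n = 3), with a ratio of summed counts of 869 and a counting interval of 240 to 7183. Il1a was at 3, 1 and 3 counts against 423, 456 and 442, with a ratio of 177 (85.5 to 440), and Tnf at 0.01 against 1.25 FPKM, with a ratio of 122 (33.5 to 1014). Lif rose from 0.95 to 3.39 FPKM, and Il6 fell from 9.09 ± 1.06 to 4.37 ± 0.15 FPKM (SD, n = 3; log2 fold change -1.08 ± 0.11, edgeR, adjusted p = 9.11e-05). Pdgfa fell from 6.04 to 4.31 FPKM (-0.51 ± 0.10, edgeR, adjusted p = 0.00266). Of 11 tested inducers, 6 were called higher and 3 lower, beside 31.5% and 31.3% of all tested genes, with a median log2 fold change of 0.47. Il1a, Il1b and Tnf, with at most 3 counts in each library of LLC alone, passed the filter only through LLC with BMSCs.

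Of the 28 transcription factors on the list, all tested, 10 were called higher and 11 lower, beside 31.5% and 31.3% of all tested genes, with a median log2 fold change of -0.08. Fos rose from 0.50, 0.45 and 0.64 FPKM to 2.27, 2.5 and 2.51 FPKM (2.15 ± 0.14, edgeR, adjusted p = 1.29e-05), and Fosb from 0.96 to 2.13 FPKM. The AP-1 subunits with the highest levels did not follow: Fosl1 fell from 156 to 104 FPKM and Jun from 34.2 to 27.4 FPKM, and Junb and Jund were not called. Stat3 rose from 11.40, 12.15 and 10.47 FPKM to 27.75, 26.25 and 26.43 FPKM (1.22 ± 0.07, edgeR, adjusted p = 5.88e-06), and Nfkb1 from 30.1 to 66.7 FPKM. Snai2 (Slug), a repressor of epithelial genes, fell from 60.13, 56.84 and 61.11 FPKM to 13.72, 12.91 and 13.27 FPKM (-2.18 ± 0.06, edgeR, adjusted p = 2.92e-07).

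Markers of some other cell types differed between the groups. Since Mmp8 and Mmp9 are products of neutrophils and Mmp12 of macrophages, and Mmp2, Mmp3 and Mmp13 are made by fibroblasts and stromal cells, the marker lists are given here. All 7 tested markers of the list of 10 for neutrophils were called higher, beside 31.5% of all tested genes. Of these, S100a8, S100a9, Mpo, Csf3r, Ngp and Camp had at most 2 counts in each library of LLC alone. They passed the filter only through LLC with BMSCs and could be called only as higher, so nothing is read from this count. The summed level of that list was 0.29 to 0.63 FPKM in LLC alone, against 43.3 to 52.0 FPKM in LLC with BMSCs. S100a8 and S100a9 made up most of it (20.2 and 22.4 FPKM in LLC with BMSCs), Ngp was at 2.60 FPKM and Camp at 1.10 FPKM, while Ly6g had 1 to 4 counts in every library and Mpo and Elane were at 0.30 FPKM or less. Of the 10 macrophage markers 7 were tested, with 6 called higher and 1 (Cd68) lower, beside 31.5% and 31.3% of all tested genes. Adgre1 and Itgam, with at most 5 counts in each library of LLC alone, passed the filter only through LLC with BMSCs. The sum of the 10 macrophage markers was 8.02 to 9.87 FPKM in LLC alone, against 10.7 to 10.9 FPKM in LLC with BMSCs. Lyz2 rose from 3.08 to 4.71 FPKM, Itgam from 0.01 to 1.17 FPKM and Adgre1 from 0 to 0.48 FPKM, whereas C1qa, C1qb and C1qc averaged 0.05 FPKM or less. Of the 12 BMSC and fibroblast markers, the 10 tested were all called higher, beside 31.5% of all tested genes. Col1a1 and Lum, with at most 4 counts in each library of LLC alone, passed the filter only through LLC with BMSCs. The 12 BMSC and fibroblast markers summed to 75.5 to 88.8 FPKM in LLC alone, against 162 to 173 FPKM in LLC with BMSCs, mostly from Col3a1. Nt5e rose from 1.02 to 4.02 FPKM and Pdgfra from 5.78 to 8.13 FPKM, whereas Thy1 and Cxcl12 averaged 0.09 FPKM or less and Lum 0.24 FPKM or less. The sums of the endothelial, lymphocyte, osteoblast and cartilage, and keratinocyte markers were under 1 FPKM in every library. What part cells of other types had in the levels of the MMP genes was not tested. Col1a1, Col1a2, Col3a1 and Dcn stand on both the fibroblast and the substrate list.

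For the 3 members with the most normalized counts, the genes with the most similar profile over the 6 libraries were sought among 10595 genes with at least 100 normalized counts, by the root mean square distance of centred log2 CPM. These were Apol9b (distance 0.15) and Itgb3 (0.16) for Mmp3, Aaed1 (0.01) and Sppl2a (0.02) for Mmp14, and Lrrn4cl (0.03) and Slmo1 (0.04) for Mmp11. Apol9b rose from 0.71 to 11.85 FPKM and Itgb3 from 0.06 to 0.94 FPKM, with log2 fold changes of 4.02 ± 0.12 and 3.88 ± 0.14 beside 4.02 ± 0.09 for Mmp3. With 2 groups of 3 libraries this likeness is chiefly that of the size of the step between the groups.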

How the data were processed

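RNA sequencing of sorted LLC cells was available for LLC alone (3 libraries) and LLC with BMSCs (3 libraries), grouped by their sample labels. The study's methods name the BGISEQ-500, the labels Illumina protocols. The authors deposited estimated counts and FPKM values per gene and per transcript for each library, and a table of FPKM for the series that equalled the single libraries. The submitters' processing notes name HISAT, StringTie, Cufflinks and GATK and the build mm8, without roles or versions. The counting program was not given in the sources used here, nor whether counting used strand. Since FPKM is scaled to the total of a library, a rise of abundant genes lowers the value of the rest.

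Estimated counts were rounded. edgeR 4.0.16 (R 4.3.3) was used for TMM scaling, its default filter, and its quasi-likelihood test over all 6 libraries with Benjamini-Hochberg adjustment at 0.05. Each SE was obtained from the fold change and the F statistic of its test (their ratio, after taking the root of F). The steps were also run on simulated counts, with the same spread for all genes and far fewer changed genes than were called here. Nothing about the calls is read from that run. With 3 libraries against 3, an exact permutation test cannot go below 0.1, so none is given. Where 1 group had at most 3 counts in every library, a bound against 3 counts per library or a ratio with an exact 95% binomial interval replaces the fitted value. These cover counting error only. Nothing says that replicates were separate mice, so p-values measure the spread between these libraries, which may be technical. Alternatives were DESeq2 1.42.0, no TMM, upper-quartile scaling, other filters, limma 3.58.1 on log2(FPKM + 1) and log2(FPKM + 0.1), a block of replicate numbers, a length trend removed, close libraries summed, and each library left out.

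The members and gene lists were chosen with earlier results of these data known. Each MMP gene is named. From each list the called genes with at least 1 FPKM in either group, at most 6 by absolute log2 fold change, could be named, with those the account of a member needs. Some genes that this rule selects are not reported here. Other genes named (Cd44, Plaur, Bsg, Timp1, Timp3, Reck, Jun, Fosl1, Junb, Jund, Spp1, Col4a1, Lum, the other basement membrane genes, single markers and flanking genes) were picked after their values were seen. Gene order came from RefSeq on GRCm38.p6, and promoter windows from RefSeq on the same build. Proteins were not analysed here.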

Additional observations from a re-analysis of the deposited data

How the results depend on the processing

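The number of members called was 6 to 8 under the alternatives (7 as reported), with 7 in each fit that left out 1 library. At an adjusted p of 0.05, 12 of the 14 tested MMP genes kept their call and direction in every alternative that tested them. Mmp19 gained a call as given above, and Mmp24 lost its call in the fits given above and also with close libraries summed (adjusted p = 0.0675) and with limma on log2(FPKM + 1) without a filter (adjusted p = 0.0508). Of the 87 genes refitted under the alternatives, 0 reversed direction with a call, while some genes named above, Krt18 among them, were not followed. The stricter threshold, an adjusted p under 0.001 together with a log2 change of 1 or more either way, gave 6 members, without Mmp14, 1633 genes in place of 8393, 10 in place of 21 activators, inhibitors and partners, 10 in place of 16 substrates and 12 in place of 30 inducers and factors. With at least 10 counts in every library, 3 rather than 6 of the other MMP genes were called, since only 3 were then tested. Deviations from the group means correlated at 0.08, -0.11 and 0.06 between same-numbered libraries and at -0.16 to 0.15 between the others. Such values cannot tell whether the replicate numbers pair the libraries. With the replicate block 8219 genes and 7 members were called. With the length trend removed as well, 9296 genes and 8 members were called. Pdgfa and Sppl2a were not called once the length trend was removed (log2 fold changes of -0.21 and 0.10), and Krt8 was not called without any 1 library other than LLC alone replicate 3 (adjusted p = 0.0646 to 0.139). The cause was not tested. The fitted value of Mmp9 fell to 2.48 with limma on log2(FPKM + 1), whose pseudocount reduces the change of low genes. At these depths, Mmp15 and the other MMP genes that did not pass the filter had at most 9 counts in any library, which limits what could be compared.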
